A study of Homo sapiens with 6 samples.

Results

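The genes described here make up the NRF2, thioredoxin and NADPH antioxidant defence: NRF2 (gene NFE2L2) with its regulators, thioredoxins and peroxiredoxins, superoxide and peroxide enzymes, quinone reductases, enzymes that supply NADPH, aldo-keto and carbonyl reductases, and other genes linked to NRF2. They were taken by symbol from the deposited count table, and all 36 were found, in 37 of its 25445 rows. RNA-seq was performed in MHCC-97H cells, a long-established line of human hepatocellular carcinoma. The 6j treated cells received compound 6j, which was derived from sophoridine, a plant alkaloid, at 10 μM for 16 h, and the non-treated cells received solvent only, although their treatment is labelled as none. No allele, transgene or second agent was labelled in either group, and both were grown in the same medium. Each group had 3 libraries with replicate numbers 1 to 3, so the results describe 1 cell line at 1 dose and 1 time.

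NRF2 is a transcription factor that KEAP1 holds in the cytoplasm and delivers to the proteasome. When reactive molecules modify KEAP1, NRF2 accumulates, pairs with a small MAF protein and binds antioxidant response elements, where BACH1 can otherwise sit as a repressor. Many of its targets remove peroxides and quinones, and the thioredoxin and glutathione systems that do so draw their electrons from NADPH.

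Total counts ranged from 31533403 to 38018349 per library. Levels are given as CPM (counts scaled to the library total) after TMM normalization, and differences as log2 fold changes of 6j treated against non-treated cells. Adjusted p means the Benjamini-Hochberg value of edgeR's quasi-likelihood test over all 15957 rows tested, and a DEG also had a fold change above 1.5. The labels do not say whether libraries of a group came from separate cultures, so p-values measure the spread between these libraries, which may be technical. Libraries of the same replicate number deviated together (correlations of 0.171 to 0.312), and a second fit compared them within their number (the replicate block). That block rests on a pattern in the same data, since the labels do not say that libraries were paired. In bulk RNA, fewer cells of a type and less RNA per cell cannot be told apart. Of 8 hepatic marker genes 1 exceeded 1 CPM on average, HNF4A at 1.05 CPM, and TTR had no count, so the defining transcripts of liver cells were near absent in cells labelled as liver. The epithelial keratins KRT8 and KRT18 averaged 504 and 387 CPM, while EPCAM had no count and CDH1 averaged 0.220 CPM. The 4 epithelial genes summed to 904 to 1109 CPM in non-treated and 705 to 823 CPM in 6j treated libraries. Of 7 genes of other cells 4 exceeded 1 CPM (COL1A1, CD68, COL3A1 and ACTA2), PTPRC had no count, and the list summed to 312 to 373 CPM in non-treated and 294 to 359 CPM in 6j treated libraries. Whether these marker levels had a part in the results was not tested.

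The antioxidant genes moved in both directions after 6j, and by small amounts. OSGIN1, SOD2, CAT and ME1 rose, while CBR1, PRDX3, PRDX6, SOD1 and TXNRD2 fell. OSGIN1, a stress-induced growth inhibitor, rose 1.98-fold and was the single DEG. The other 8 changed by 1.23-fold to 1.43-fold. NFE2L2, KEAP1 and NQO1, the quinone reductase often used to read NRF2 activity, did not pass the test. Of the 37 rows 35 had enough counts to be tested, and 9 of them (25.7%, 4 higher and 5 lower) passed the adjusted p, beside 9.16% of all rows tested (4.79% higher and 4.37% lower). The 1 DEG stood beside 3.6% of all rows (2.48% higher and 1.12% lower). The genes were chosen with earlier results of these data known, so these shares describe the list and do not measure enrichment. The median log2 fold change was −0.028 for the 35 rows and 0.0046 for all rows, and 32 of the 35 changed by less than 1.5-fold.

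The number of genes that passed depended on how the libraries were compared. With the replicate block 18 rows passed (51.4%, 9 higher and 9 lower), beside 26.9% of all rows in that fit (13.1% higher and 13.9% lower), and 1 was a DEG, beside 6.47%. None of the 9 was lost, and PGD, BACH1, BLVRB, UGDH and TXNRD1 (higher) and TALDO1, PRDX1, PRDX2 and TXN (lower) were gained. DESeq2 gave 12, adding BACH1, TALDO1 and PRDX2, beside 16.3% of all rows with an adjusted p. The levels of the groups did not overlap in 15 rows (42.9%, 6 higher and 9 lower), beside 31.7% of all rows (16.0% higher and 15.8% lower). In 23 rows the difference had the same sign in all 3 replicate numbers, as it did in 57.1% of all rows. In edgeR's fit without the block, 0 of the 35 passed when non-treated replicate 1 or 6j treated replicate 2 was left out, where 15 and 14 had an unadjusted p under 0.05. The count was 4 without non-treated replicate 2 or 3, 9 without 6j treated replicate 1 and 8 without 6j treated replicate 3. With the replicate block, all 9 genes passed in each of the 3 fits that left out 1 replicate number.

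**Figure D1:**
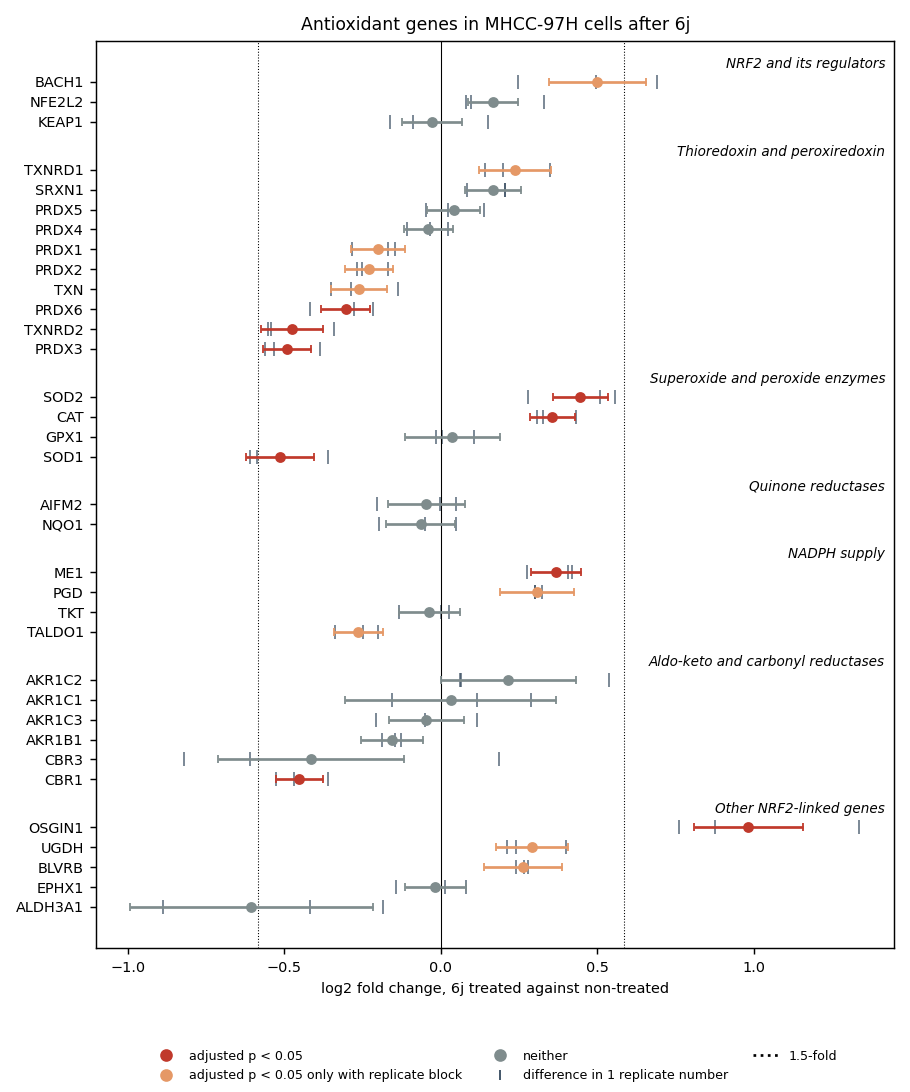
Log2 fold change (x axis, edgeR) of each antioxidant gene tested, grouped by class, with bars for 1 SE and ticks for the difference within each replicate number. The short second row of SOD2 is left out. OSGIN1 stands alone beyond the 1.5-fold line among genes that passed, while genes of the thioredoxin and peroxiredoxin class lie on both sides of 0.

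The regulators of the pathway came first. NFE2L2, which encodes NRF2 itself, was measured at 106, 115 and 119 CPM in non-treated replicates 1 to 3 and at 133, 123 and 125 CPM in 6j treated replicates. All 6j treated libraries were above all non-treated ones, yet the difference did not pass the test (log2 fold change 0.17, SE 0.08, adjusted p = 0.221, and 0.10 with the replicate block). KEAP1, the adaptor that marks NRF2 for degradation, had 84.5, 89.6 and 80.8 CPM in non-treated and 93.9, 80.2 and 76.0 CPM in 6j treated cells. The groups of KEAP1 overlapped (log2 fold change −0.03, SE 0.10, adjusted p = 0.895). BACH1, a repressor at NRF2 sites, had 41.3, 43.0 and 47.8 CPM in non-treated and 49.0, 60.6 and 77.2 CPM in 6j treated cells. Every 6j treated library was higher for BACH1, and the treated libraries were spread wider than the non-treated ones (log2 fold change 0.50, SE 0.15, adjusted p = 0.0786). BACH1 passed with the replicate block (log2 fold change 0.48, SE 0.09, adjusted p = 0.00195) and with DESeq2 (adjusted p = 0.0177). Thus 0 of the 3 regulators passed edgeR's test without the block, beside 9.16% of all rows, and 1 had an unadjusted p under 0.05. DESeq2 called 1, beside 16.3% of all rows with an adjusted p. With so few genes, these counts say little about the class. NFE2L2 overlaps AGPS and BACH1 overlaps GRIK1 on the opposite strand, and it is not stated whether the counting used strand.

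In the thioredoxin and peroxiredoxin class 3 of 10 genes passed the adjusted p, all lower, beside 9.16% of all rows (4.37% lower), and the 10 log2 fold changes were negative in 7 and positive in 3. Thioredoxin reductases pass electrons from NADPH to thioredoxin, which in turn reduces most peroxiredoxins, the enzymes that break down hydrogen peroxide. PRDX3, the mitochondrial peroxiredoxin, had 194, 194 and 205 CPM in non-treated cells and 148, 134 and 139 CPM in 6j treated cells. Its groups stood well apart, a 1.41-fold fall (log2 fold change −0.49, SE 0.08, adjusted p = 0.00935). TXNRD2, the mitochondrial thioredoxin reductase, was at 42.4, 45.5 and 41.1 CPM in non-treated and 33.5, 31.0 and 28.2 CPM in 6j treated cells. That was 1.39-fold lower without overlap (log2 fold change −0.48, SE 0.10, adjusted p = 0.0210). PRDX6, a 1-cysteine peroxiredoxin that uses glutathione, fell 1.23-fold from 352, 353 and 375 CPM to 303, 291 and 281 CPM. This was the smallest of the changes that passed (log2 fold change −0.30, SE 0.08, adjusted p = 0.0424).

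The 3 calls differed in how they held when a library was left out. For PRDX3 the adjusted p was 0.0519 without non-treated replicate 1 and 0.0574 without 6j treated replicate 2. TXNRD2 had 0.0861 and 0.0956 without the same libraries, and 0.0728 without non-treated replicate 2. PRDX6 was past the threshold in none of the 6 fits that left out 1 library (adjusted p from 0.0501 without 6j treated replicate 1 to 0.144 without non-treated replicate 1), and with the replicate block its adjusted p was 0.00339.

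In the cytosol, thioredoxin TXN had 222, 263 and 261 CPM in non-treated and 203, 215 and 205 CPM in 6j treated cells. The treated libraries were all lower, but TXN passed only with the replicate block (log2 fold change −0.26 in both fits, SE 0.09 and 0.06, adjusted p = 0.0984 and 0.0107). PRDX1, the most abundant of these genes per length, went from 594, 645 and 674 CPM to 529, 583 and 554 CPM. PRDX2, its close cytosolic relative, went from 291, 300.2 and 315 CPM to 259, 249.6 and 264 CPM. Neither pair of groups overlapped, and both genes passed only with the block among edgeR's fits. For PRDX1 the log2 fold change was −0.20 (SE 0.09, adjusted p = 0.184, and 0.0190 with the block, SE 0.05). For PRDX2 it was −0.23 (SE 0.08, adjusted p = 0.0931, 0.0118 with the block, SE 0.06, and 0.0399 with DESeq2). MMACHC lies on the opposite strand of PRDX1. TXNRD1, the cytosolic thioredoxin reductase, moved the other way, from 788, 881 and 780.2 CPM to 904, 1123 and 860.5 CPM. The groups of TXNRD1 overlapped, and it passed only with the block (log2 fold change 0.24, SE 0.12, adjusted p = 0.234, and 0.23, SE 0.06, adjusted p = 0.0113 with the block). Within a library the ratio of TXNRD1 to TXNRD2 counts was 18.6, 19.4 and 19 in non-treated and 27.0, 36.2 and 30.5 in 6j treated replicates. It is given as a description, chosen with the values known. Other pairs had groups that overlapped. BACH1 to NFE2L2 was 0.389, 0.375 and 0.403 in non-treated and 0.368, 0.495 and 0.616 in 6j treated replicates. AKR1C1 to AKR1C2 was 1.05, 1.41 and 1.54 in non-treated and 1.23, 1.05 and 1.32 in 6j treated replicates. With the block 7 of 10 genes of the class passed, 1 higher and 6 lower, beside 26.9% of all rows in that fit (13.1% higher and 13.9% lower).

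The remaining 3 genes of the class did not pass in either fit. PRDX4, the peroxiredoxin of the endoplasmic reticulum, had 192 ± 11.6 CPM in non-treated and 187 ± 5.82 CPM in 6j treated cells (SD, n = 3; log2 fold change −0.04, adjusted p = 0.794). PRDX5, found in mitochondria, peroxisomes and cytosol, had 149 ± 4.77 and 153 ± 12.7 CPM (log2 fold change 0.04, adjusted p = 0.806). SRXN1, which repairs overoxidized peroxiredoxins and is a well-known NRF2 target, had 92.4 ± 6.06 and 104 ± 8.52 CPM (log2 fold change 0.17, adjusted p = 0.281, and 0.0662 with the block). Its count is uncertain, because 84.8% of the 50-base windows of its transcript also occur in the overlapping gene AL121758.1.

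**Figure D2:**
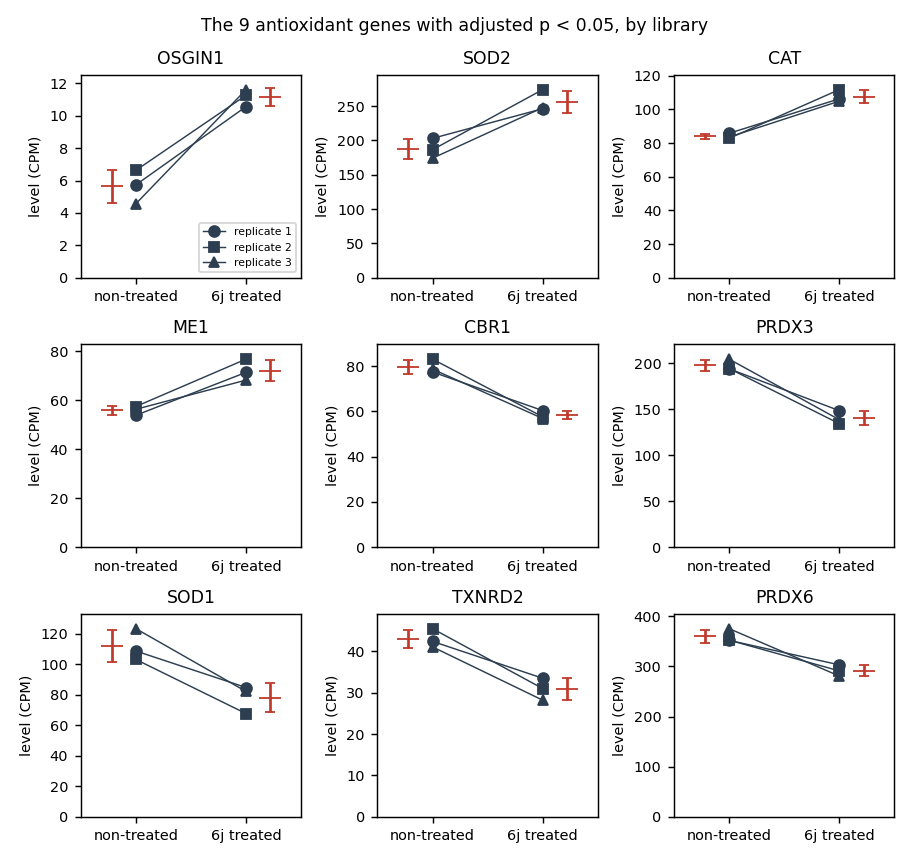
Level (CPM, y axis from 0) of the 9 genes with an adjusted p under 0.05 in each library, with lines joining libraries of the same replicate number and red marks for the mean and SD of 3 libraries. In each panel the 6j treated libraries lie wholly above (OSGIN1, SOD2, CAT, ME1) or below (CBR1, PRDX3, SOD1, TXNRD2, PRDX6) the non-treated ones.

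Among the superoxide and peroxide enzymes, SOD2 and SOD1 changed in opposite directions. SOD2, the manganese superoxide dismutase of mitochondria, had 203, 186 and 174 CPM in non-treated and 246, 274 and 248 CPM in 6j treated cells. Its lowest treated library was above the highest non-treated one, a 1.36-fold rise (log2 fold change 0.45, SE 0.09, adjusted p = 0.0183). SOD1, the copper and zinc superoxide dismutase of the cytosol, fell 1.43-fold from 109, 103 and 123 CPM to 84.7, 67.6 and 82.1 CPM. All treated libraries were lower for SOD1, and replicate 2 was the lowest in each group (log2 fold change −0.51, SE 0.11, adjusted p = 0.0221). CAT, the peroxisomal catalase that splits hydrogen peroxide, rose 1.28-fold from 85.8, 82.8 and 83.6 CPM to 106, 112 and 105 CPM. The spread of CAT was small in each group (log2 fold change 0.36, SE 0.07, adjusted p = 0.0198). Within a library the ratio of SOD2 to SOD1 counts was 1.87, 1.81 and 1.41 in non-treated replicates and 2.91, 4.05 and 3.02 in 6j treated replicates. This ratio is a description, chosen with the values known. It is not divided by transcript length, so it does not rank the 2 genes. Per kilobase of annotated transcript, SOD1 had 116 CPM in non-treated and 80.9 in 6j treated cells. SOD2 had 13.2 and 17.9 when divided by its longest principal transcript, of 14.3 kilobases. A shorter transcript would give a higher value for SOD2, so these values do not rank the 2 genes either.

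Leaving out 1 library ended these calls in several fits. SOD2 lost its call without any of non-treated replicates 1, 2 and 3 (adjusted p = 0.0611, 0.0589 and 0.0622) and without 6j treated replicate 2 (0.0907). CAT did so in the same fits (0.0914, 0.0718, 0.0636 and 0.0951). SOD1 lost it without non-treated replicate 1 or 3 or 6j treated replicate 2 (0.0857, 0.0722 and 0.0968). SOD2 is listed in 2 overlapping rows, and the values above are of ENSG00000112096. WTAP lies on its opposite strand, and 10.4% of its 50-base windows occur in other genes. The short row ENSG00000285441 had 0.301 ± 0.234 CPM in non-treated and 0.600 ± 0.0981 CPM in 6j treated cells (SD, n = 3) and did not pass (log2 fold change 1.01, SE 0.59, adjusted p = 0.325).

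The glutathione peroxidases of the list gave no call. GPX1, a selenoenzyme of cytosol and mitochondria, had 215 ± 32 CPM in non-treated and 220.3 ± 38.7 CPM in 6j treated cells (SD, n = 3; log2 fold change 0.04, adjusted p = 0.909). Replicate 3 was lowest in both groups, at 178 and 176 CPM, and 21.5% of the windows of GPX1 are shared, mostly with the pseudogene GPX1P1. GPX2, the gastrointestinal form, had at most 5 counts in a library and 7 in all, and was not tested.

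**Figure D3:**
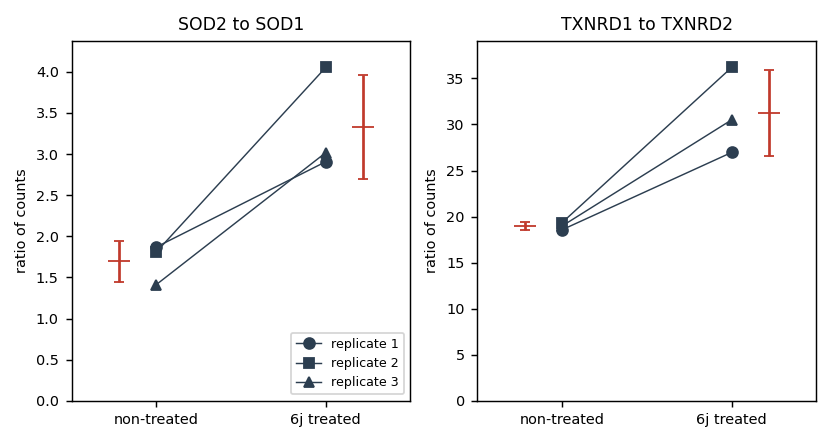
Ratio of counts within each library (y axis from 0) of SOD2 to SOD1 and of TXNRD1 to TXNRD2, with lines joining libraries of the same replicate number and red marks for the mean and SD of 3 libraries. The mean ratio of SOD2 to SOD1 was 1.70 in non-treated and 3.33 in 6j treated cells, and that of TXNRD1 to TXNRD2 19 and 31.2. Counts are not divided by transcript length, so the ratios do not rank the genes by level. Ratios of other pairs, whose groups overlapped, are not shown.

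Quinone reductases spend NADH or NADPH to reduce quinones by electron pairs. NQO1 had 271, 329 and 289 CPM in non-treated and 280.1, 317 and 252 CPM in 6j treated cells. The groups overlapped (log2 fold change −0.06, SE 0.11, adjusted p = 0.763). AIFM2, also known as FSP1, which reduces ubiquinone at membranes and thereby limits lipid peroxidation, had 27.8 ± 2.41 and 26.9 ± 3.52 CPM (SD, n = 3; log2 fold change −0.05, adjusted p = 0.856). H2AFY2 lies on its opposite strand. In this class 0 of 2 genes passed by edgeR without the block, with the block or by DESeq2, and 0 had an unadjusted p under 0.05. Among all rows 9.16%, 26.9% and 16.3% passed in these fits, so 0 of 2 says little about the class.

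Among the enzymes of NADPH supply, malic enzyme rose. ME1, the cytosolic malic enzyme that makes NADPH from malate, had 53.8, 57.4 and 56.2 CPM in non-treated and 71.3, 76.7 and 68.2 CPM in 6j treated cells. That was a 1.29-fold rise without overlap (log2 fold change 0.37, SE 0.08, adjusted p = 0.0248). ME1 lost its call without non-treated replicates 1, 2 or 3 (adjusted p = 0.127, 0.0647 and 0.0709) or 6j treated replicate 2 (0.113). PGD, the second NADPH-forming step of the pentose phosphate pathway, went from 195, 203 and 159 CPM to 241, 250.02 and 199 CPM. Replicate 3 of PGD was the lowest in each group, so the groups overlapped although PGD was higher in 3 of 3 replicate numbers. It passed only with the block (log2 fold change 0.31 in both fits, SE 0.12 and 0.06, adjusted p = 0.140 and 0.00249), and 7.03% of its windows are shared with the pseudogene PGDP1. TALDO1, the transaldolase of the non-oxidative branch, went from 144, 153 and 163 CPM to 126, 129 and 129 CPM. All treated libraries were lower for TALDO1, which passed with the block and with DESeq2 (log2 fold change −0.26, SE 0.08, adjusted p = 0.0652, 0.0101 with the block and 0.0280 with DESeq2). TKT, the transketolase of the same branch, had 1100.1 ± 88.4 and 1073 ± 74.0 CPM (SD, n = 3; log2 fold change −0.04, adjusted p = 0.861). In all 1 of 4 genes passed, beside 9.16% of all rows. With the block 3 passed, 2 higher and 1 lower, beside 26.9% of all rows in that fit.

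Aldo-keto and carbonyl reductases detoxify aldehydes and ketones with NADPH. CBR1, the main cytosolic carbonyl reductase, fell 1.37-fold from 77.4, 83.0 and 78.6 CPM to 60.3, 57.6 and 56.8 CPM. The spread within each group was smaller than the gap between them (log2 fold change −0.45, SE 0.08, adjusted p = 0.0113). Without non-treated replicate 1 or 6j treated replicate 2, its adjusted p was 0.0578 and 0.0637. Its neighbour CBR3 was low, at 7.25 ± 2.41 CPM in non-treated and 5.43 ± 1.63 CPM in 6j treated cells, and did not pass (SD, n = 3; log2 fold change −0.41, adjusted p = 0.427). AKR1B1, the aldose reductase, had 119 ± 11.6 and 107 ± 8.61 CPM (log2 fold change −0.15, adjusted p = 0.370). AKR1B10, a known NRF2 target, had no count in any library, which allows up to 3 counts, or 0.0789 to 0.0951 CPM.

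The AKR1C genes, steroid and aldehyde reductases that are known NRF2 targets, gave no call. AKR1C1 had 14.8, 20.4 and 33.6 CPM in non-treated and 18.1, 22.1 and 30.2 CPM in 6j treated cells, highest in replicate 3 of each group (log2 fold change 0.03, adjusted p = 0.968). AKR1C2 had 16.8 ± 4.36 and 19.5 ± 4.24 CPM (SD, n = 3; log2 fold change 0.22, adjusted p = 0.581). AKR1C3 had 43.2 ± 5.14 and 41.8 ± 4.71 CPM (log2 fold change −0.05, adjusted p = 0.852). These genes are near copies: 28.7% of the windows of AKR1C1, 52.2% of those of AKR1C2 and 12.1% of those of AKR1C3 occur in another gene, so their split is uncertain. Counted as 1 gene, their log2 fold change was 0.03 (adjusted p = 0.937). In this class 1 of 6 genes tested passed, beside 9.16% of all rows.

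OSGIN1 had the largest fold change of the genes that passed. It had 5.73, 6.63 and 4.57 CPM in non-treated and 10.6, 11.3 and 11.6 CPM in 6j treated cells, from a gene at chr16:83948282-83966332 (GRCh38). The treated libraries lay close together and all well above the non-treated ones (log2 fold change 0.98, SE 0.17, adjusted p = 0.0124). Without non-treated replicate 1 or 6j treated replicate 2 its adjusted p was 0.0651 and 0.0677, and with the replicate block it was 0.000871. A test against a 1.5-fold change did not call OSGIN1, and 2.75% of its windows are shared with the overlapping AC009119.2.

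Besides OSGIN1, the class of other NRF2-linked genes gave calls only with the block, for UGDH and BLVRB. UGDH, which makes the UDP-glucuronate used in conjugation, went from 75.7, 87.7 and 77.9 CPM to 87.7, 116 and 92.0 CPM. BLVRB, a flavin and biliverdin reductase that uses NADPH, went from 23.4, 27.5 and 29.4 CPM to 28.1, 32.5 and 35.7 CPM. Both were higher in 3 of 3 replicate numbers while their groups overlapped. For UGDH the log2 fold change was 0.29 (SE 0.12, adjusted p = 0.149, and 0.28, SE 0.06, adjusted p = 0.00583 with the block). For BLVRB it was 0.26 (SE 0.13, adjusted p = 0.223, and 0.0365 with the block, SE 0.08). EPHX1, the microsomal epoxide hydrolase, had 111 ± 10.5 and 109 ± 8.61 CPM (SD, n = 3; log2 fold change −0.02, adjusted p = 0.938), with TMEM63A on its opposite strand. ALDH3A1, an aldehyde dehydrogenase, was low and variable at 5.01 ± 2.78 and 3.30 ± 0.958 CPM (log2 fold change −0.61, adjusted p = 0.373). With OSGIN1 counted, 1 of the 5 genes of the class passed, beside 9.16% of all rows. With the block 3 passed, all higher, beside 26.9% of all rows in that fit (13.1% higher).

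Of the 9 genes that edgeR called with the block but not without it on all 6 libraries, 3 were also called by DESeq2 (BACH1, TALDO1 and PRDX2). BACH1 passed without the block too when 6j treated replicate 1 was left out (adjusted p = 0.0211). PGD and BACH1 passed in all 3 blocked fits that left out 1 replicate number. UGDH passed in 2 of the 3, TALDO1, PRDX2, TXN and TXNRD1 in 1, and BLVRB and PRDX1 in 0. For the other 7, the largest adjusted p in those fits ran from 0.0862 for TALDO1 to 0.171 for PRDX1.

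Levels of different genes were compared per kilobase of their longest principal transcript, so the order depends on that choice. PRDX1 was highest at 517 CPM per kilobase in non-treated cells, followed by TKT at 365, PRDX2 at 306 and TXN at 286. TXNRD1 and PRDX6 followed at 208 and 206 CPM per kilobase and did not differ beyond the spread of their libraries. OSGIN1 had 2.53 CPM per kilobase in non-treated and 5.0 in 6j treated cells. In non-treated cells it was the lowest of the genes tested apart from the short SOD2 row, and ALDH3A1 at 2.60 did not differ from it beyond their spread. The value of SOD2, 13.2 CPM per kilobase, is divided by an annotated transcript of 14.3 kilobases, and a shorter one would give a higher value. Summed per library, the 36 genes took 6216 ± 210.4 CPM in non-treated and 6148 ± 271 CPM in 6j treated cells (SD, n = 3).

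**Figure D4:**
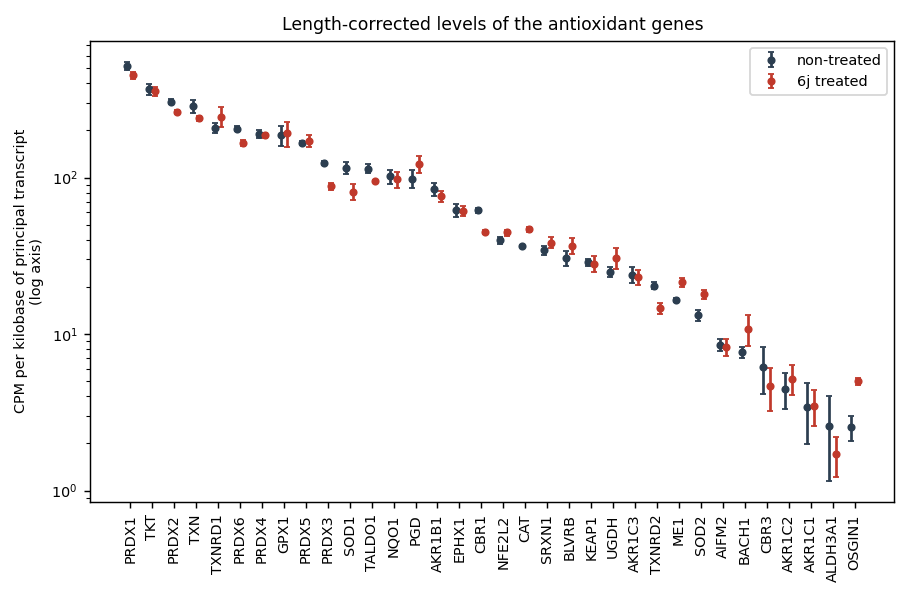
Level of each antioxidant gene tested, in CPM per kilobase of its longest principal transcript (log y axis), ordered by the non-treated mean. Points are means and bars the SD of 3 libraries. Most pairs of points lie close together, and the order runs from PRDX1 at 517 to OSGIN1 at 2.53 CPM per kilobase in non-treated cells.

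Since NRF2 acts through an element of known sequence, the promoters of these genes were searched for it. RefSeq windows (GRCh38.p14, 250 bases before to 50 after a start) were found for 30 of the 36 genes. Both strands were searched for TGACNNNGC, the core of the antioxidant response element, and for TGANTCAGC, a form with more letters fixed that is bound by NRF2 or BACH1 with a small MAF. They overlap, since TGACTCAGC matches both, while TGAGTCAGC, the match in OSGIN1, has the second form alone. TGACNNNGC was in windows of 8 of the 30 genes (AIFM2, CBR1, EPHX1, GPX2, KEAP1, ME1, PGD and TXNRD1), beside 16.1% of all 27305 genes with a window. A gene can have several windows, and counted by window it was in 9 of the 45 windows of these genes and in 13.3% of all 35116. TGANTCAGC was in windows of 3 genes (OSGIN1, ME1 and AIFM2), beside 1.66% of all genes, and in 3 of 45 windows beside 1.36% of all windows. The 3 windows with TGANTCAGC are shown 5′ to 3′ along the gene, with the match in capitals, so that the 2 genes that rose can be read beside AIFM2, which did not pass. They lie at chr16:83952990-83953289 (+ strand) for OSGIN1, chr6:83431002-83431301 (− strand) for ME1 and chr10:70132776-70133075 (− strand) for AIFM2.
OSGIN1: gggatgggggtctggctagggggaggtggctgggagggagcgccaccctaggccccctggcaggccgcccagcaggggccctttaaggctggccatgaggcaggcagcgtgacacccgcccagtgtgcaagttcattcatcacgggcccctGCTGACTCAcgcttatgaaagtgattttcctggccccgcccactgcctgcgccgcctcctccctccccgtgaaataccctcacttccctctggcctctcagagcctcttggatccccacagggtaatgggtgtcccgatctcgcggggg
ME1: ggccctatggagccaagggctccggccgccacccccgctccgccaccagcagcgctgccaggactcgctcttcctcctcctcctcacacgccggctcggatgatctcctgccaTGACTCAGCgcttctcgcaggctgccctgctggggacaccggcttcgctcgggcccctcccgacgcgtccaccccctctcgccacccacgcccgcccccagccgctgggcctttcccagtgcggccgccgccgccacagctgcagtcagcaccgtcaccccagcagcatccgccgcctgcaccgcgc
AIFM2: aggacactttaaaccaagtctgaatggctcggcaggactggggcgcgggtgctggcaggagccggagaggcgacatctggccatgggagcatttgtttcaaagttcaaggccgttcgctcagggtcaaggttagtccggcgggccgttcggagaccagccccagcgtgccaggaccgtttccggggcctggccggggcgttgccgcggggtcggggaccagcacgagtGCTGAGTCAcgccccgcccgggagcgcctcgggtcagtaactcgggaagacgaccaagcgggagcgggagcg

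With RefSeq's start base counted as 0, the match begins at position −99 for OSGIN1, −137 for ME1 and −22 for AIFM2. RefSeq's start of OSGIN1 in this window is base 83953240, inside the GENCODE gene whose coordinates are given above. In OSGIN1 and AIFM2 it reads on the strand opposite to the gene. A match is a description of the letters and was not tested as a site.

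Other genes of the same pathways, from a list of 71 of which 65 were tested, gave 18 past the adjusted p (27.7%, 12 higher and 6 lower) and 10 DEGs (9 higher and 1 lower), beside the 9.16% and 3.6% of all rows. With the replicate block 31 passed (47.7%, 20 higher and 11 lower), beside 26.9% of all rows in that fit. The count was 3 without non-treated replicate 1 or 6j treated replicate 2. This list too was chosen with earlier results of these data known, so its shares do not measure enrichment. The partners and degradation factors of NRF2 had 6 of 13 past the threshold, 5 higher and 1 lower. Often used NRF2 targets outside the 36 genes had 3 of 10 past it, all higher, and 7 with the block, all higher. Other genes listed under NADPH supply had 3 of 14, all higher. Other thioredoxin, glutaredoxin and methionine sulfoxide reductase genes had 1 higher and 3 lower of 13, and other reductase and conjugation genes had 2 lower of 10. Of 5 other superoxide and peroxide enzymes 0 passed by edgeR, 2 had an unadjusted p under 0.05, and DESeq2 called 1.

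The 8 of these genes with the smallest adjusted p were all higher after 6j. In each the treated libraries lay above the non-treated ones, which adds little, since the genes were picked by that p. The groups did not overlap in 31 of the 65 genes (16 higher and 15 lower), beside 31.7% of all rows. MAFF and MAFG, small MAF proteins that pair with NRF2 or BACH1, had 14.6 ± 3.32 against 32.3 ± 6.77 CPM and 83.6 ± 6.81 against 136 ± 11.7 CPM (SD, n = 3). Their log2 fold changes were 1.15 (SE 0.20, adjusted p = 0.0135) and 0.70 (SE 0.10, adjusted p = 0.00623). NFE2L1, the NRF2 relative that controls proteasome genes, went from 275 ± 4.97 to 413 ± 39.8 CPM (log2 fold change 0.59, SE 0.09, adjusted p = 0.00928). SQSTM1, the autophagy receptor p62 that can bind KEAP1, went from 660.0 ± 114 to 1076 ± 124 CPM (log2 fold change 0.71, SE 0.14, adjusted p = 0.0173). SLC7A11, the cystine transporter that feeds glutathione synthesis, went from 169 ± 17.6 to 315 ± 51.7 CPM (log2 fold change 0.90, SE 0.13, adjusted p = 0.00850). Of the genes listed under NADPH supply, the mitochondrial folate enzyme MTHFD2 rose by a log2 fold change of 0.67 (SE 0.08, adjusted p = 0.00360). The cytosolic isocitrate dehydrogenase IDH1 rose by 0.68 (SE 0.14, adjusted p = 0.0198) and the mitochondrial NAD kinase NADK2 by 0.63 (SE 0.11, adjusted p = 0.0139). NADPH itself was not measured, and what each enzyme adds to it was not tested. MTHFD2, MAFG and SLC7A11 passed in each of the 6 fits that left out 1 library. The other 5 lost their call without non-treated replicate 1 (adjusted p of 0.0594 for NFE2L1 to 0.0938 for IDH1) and without 6j treated replicate 2 (0.0513 for NADK2 to 0.0854 for SQSTM1). MAFF, SQSTM1 and IDH1 also did so without non-treated replicate 3 (0.0514, 0.0588 and 0.0600).

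**Figure D5:**
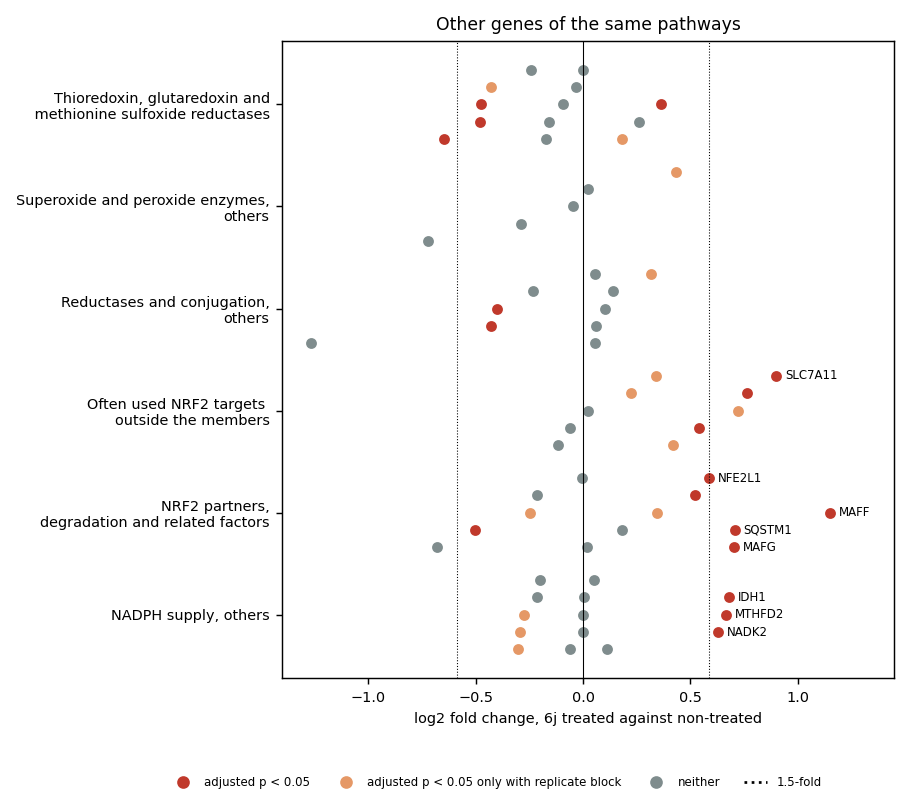
Log2 fold change (x axis, edgeR) of the 65 other pathway genes tested, 1 point a gene, by class, with height within a class set only to keep points apart. The 8 labelled genes, those with the smallest adjusted p, all lie to the right of the 1.5-fold line.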

How the data were processed

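The authors deposited whole-number read counts per gene for 6 libraries, without normalization and with 1 column per library. Per the labels, mRNA was enriched with oligo(dT), and the submitters' processing notes name HISAT2, StringTie and GRCh38. Whether the counts are rounded estimates and whether strand was used are not given in the sources used here. Of the 25445 rows 5471 were new genes of the authors' assembly, and coordinates came from GENCODE 29.

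TMM factors, filterByExpr (minimum count of 10, total of 15) and robust quasi-likelihood tests were run in edgeR 4.0.16 (R 4.3.3, limma 3.58.1) with no covariate, and DESeq2 1.42.0 was an alternative. The thresholds were an adjusted p under 0.05 over all rows and, for DEGs, a fold change above 1.5. CPM was divided by the length of the GENCODE principal transcript, the longest where several were listed, where levels of genes are compared. Total counts set the precision, and a count of 0 allows up to 3 counts, for counting error only. Shared windows are runs of 50 bases of that transcript found in transcripts of another gene.

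All 36 genes are named. Full values go to those past the adjusted p with or without the replicate block and to NFE2L2, KEAP1 and NQO1. Of the other pathway genes the 8 with the smallest adjusted p are named. Some marker and overlapping genes are not reported here. The genes, lists and marker genes were chosen with earlier results of these data known.

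Deviations from the group means correlated at 0.171, 0.180 and 0.312 between libraries of the same replicate number and at −0.231 to 0.0795 between different numbers, so the numbers were treated as pairs. Deviations within a group sum to 0, so positive values for the same number push those for different numbers down. The contrast is therefore not independent evidence, and it does not establish that the libraries were paired. What a replicate number stands for is not labelled. The alternatives were RLE size factors, no composition factors, no or a stricter filter (50 counts in 3 libraries), no robust estimation, limma-voom, DESeq2, Ensembl genes only, the AKR1C genes summed, a test against 1.5-fold, the replicate block and the removal of each library in turn. Blocked fits without 1 replicate number were added after the data had been seen. Before use, edgeR and DESeq2 were run on simulated data in which 200 genes were changed. The simulated libraries held no deviation shared by a replicate number, so the run cannot judge the replicate block. Its results are not given here.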

Additional observations from a re-analysis of the deposited data

How the results depend on the processing

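Leaving out 1 library gave 186 to 772 DEGs among all genes (574 with all libraries), 0 to 2 DEGs and 0 to 9 rows past the adjusted p among the antioxidant genes, 3 to 18 other pathway genes past it and a median log2 fold change of the antioxidant genes of −0.061 to 0.013. The replicate block gave 1033 DEGs among all genes, 18 antioxidant rows and 31 other pathway genes, and with 1 replicate number left out as well 705, 867 and 1049 DEGs, 1 to 4 antioxidant DEGs, 11 to 16 antioxidant rows, 21 to 25 other pathway genes and a median of −0.066 to 0.034. The block ended no call among the genes named. The test against a 1.5-fold change called 32 genes and 0 antioxidant genes, 1 of which had an unadjusted p under 0.05. RLE size factors, both filters, limma-voom and Ensembl genes only changed no single call of the genes named, DESeq2 added 3, and PRDX6 alone lost its call without composition factors (adjusted p = 0.055) and without robust estimation (0.0526). With the AKR1C genes summed, the sign of AKR1C3 turned to 0.032. Some genes near 0 changed sign when 1 library was left out, over log2 fold changes of −0.20 to 0.41 for AKR1C1, −0.13 to 0.046 for AKR1C3, −0.10 to 0.012 for TKT, −0.12 to 0.035 for KEAP1, −0.093 to 0.032 for EPHX1, −0.14 to 0.044 for AIFM2, −0.15 to 0.018 for NQO1, −0.081 to 0.18 for GPX1, −0.069 to 0.010 for PRDX4 and −0.029 to 0.076 for PRDX5. With the block and 1 replicate number left out, the sign turned to −0.024 for AKR1C1, 0.033 for AKR1C3, 0.016 for TKT, 0.034 for KEAP1, 0.050 for EPHX1, 0.023 for AIFM2, −0.0052 for GPX1 and −0.012 for PRDX5. GPX2 and AKR1B10 were too low to be tested at this depth.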
